A study of Mus musculus with 10 samples.

Results

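Microarray signals of 51 genes of mitosis and chromosome segregation were described in lymph node CD4+ T cells of mice with a mutated IL-2 receptor alpha chain. The genes came from a list of 53 cell division genes, and a gene was kept where a transcript probe set of the array named it and no other gene. Each of the 51 genes had 1 such probe set, among 65770 transcript probe sets and 30077 named genes in all. Ccnb1 (cyclin B1) had no probe set naming it, and the probe set of Foxm1, a transcription factor of late cell cycle genes, named a second gene as well, so neither is reported.

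Foxp3-positive Treg cells of 3 Il2ramut/mut mice and of 3 wild type (WT) mice, and Foxp3-negative conventional (Tconv) cells of 2 Il2ramut/mut mice and of 2 WT mice, were sorted, and the RNA of each sample was read on 1 Affymetrix array (Mouse Transcriptome Array 1.0, Pico labelling). All animals were female C57BL/6 mice of 6 to 8 weeks with a Foxp3-RFP reporter allele, and 50000 cells were sorted per sample. Il2ramut/mut mice carry a spontaneous point mutation in CD25, the alpha chain of the IL-2 receptor. It lowers the display of CD25 on the cell surface and the response to IL-2. The mutation arose in a Ccr2-/- colony, and the study bred the mutant line from Ccr2+/+ offspring. The gate for Tconv cells took naive cells only, with high CD62L and low CD44, according to the study's methods, so the Treg against Tconv comparison also sets other cells against naive ones. Nothing states whether Treg and Tconv arrays with the same number came from 1 mouse.

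Before a cell divides, cyclin-dependent kinase 1 bound to A-type and B-type cyclins drives it into mitosis, condensins and topoisomerase II shape the chromosomes, and kinesins, Aurora and Polo kinases build and steer the spindle. A checkpoint at the kinetochores, the docking sites of the spindle on centromeres, restrains the anaphase-promoting complex (APC/C) until all chromosomes are attached, after which separase frees sister chromatids and cytokinesis parts the daughter cells. Many of these genes are transcribed mainly in the G2 phase and in mitosis, so that their transcripts mark dividing cells. In lymph nodes, Treg cells are known to divide more often at rest than naive T cells do.

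Signals are on a log2 scale, with medians of 4.97 to 5.13 per array, and arrays of a group correlated at 0.9946 to 0.9959 across probe sets. A signal counted as above background where it passed the 95th percentile of the 23 antigenomic controls on the same array, a level between 4.98 and 5.54. Of 11 listed Treg markers, 9 were measured, and they had a mean signal of 13.4 on each Il2ramut/mut Treg array, 13.2 to 13.4 on WT Treg arrays, 7.59 to 7.71 on Il2ramut/mut Tconv arrays and 7.70 on WT Tconv arrays. Il2ra itself read 15.14 to 15.31 in Il2ramut/mut Treg cells and 14.92 to 15.01 in WT Treg cells (difference 0.25 ± 0.08, adjusted p = 0.325), which does not check the genotype because a point mutation leaves the transcript in place. The number of arrays, 2 or 3 per group, limits precision.

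Of the 51 genes, 19 were above background on all 10 arrays, 24 on some of them and 8 on none. The 8 were Birc5, Bub1, Cdc25c, Cdca3, Cenpf, Kif2c, Nuf2 and Ttk, and no fold is given for these. Il2ramut/mut Treg arrays had 38, 43 and 37 of the genes above background, and WT Treg arrays had 29, 38 and 36. Il2ramut/mut Tconv arrays had 20 and 24, and WT Tconv arrays 27 and 31. These counts depend on the background level of each array and do not by themselves compare expression. The level was 5.346 and 5.258 on the Il2ramut/mut Tconv arrays and 5.182 and 5.075 on the WT Tconv arrays. Of all probe sets, 44.8% and 45.9% were above it on the former, and 46.6% and 51.3% on the latter. WT Treg replicate 1, with 29 genes, had the highest level of its group, 5.349. The mean over the 51 genes was 6.49, 6.26 and 6.26 on the Il2ramut/mut Treg arrays and 5.96, 5.87 and 5.83 on the WT Treg arrays. It was 5.59 and 5.58 on the Il2ramut/mut Tconv arrays, against 5.54 and 5.56 on the WT Tconv arrays. Mean signals of Il2ramut/mut and WT Treg cells thus did not overlap, and every Treg array lay above every Tconv array. The first replicate of the Il2ramut/mut Treg group was the highest of its group for 36 of 51 genes, and the first WT Treg replicate was the highest of its group for 28.

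**Figure D1:**
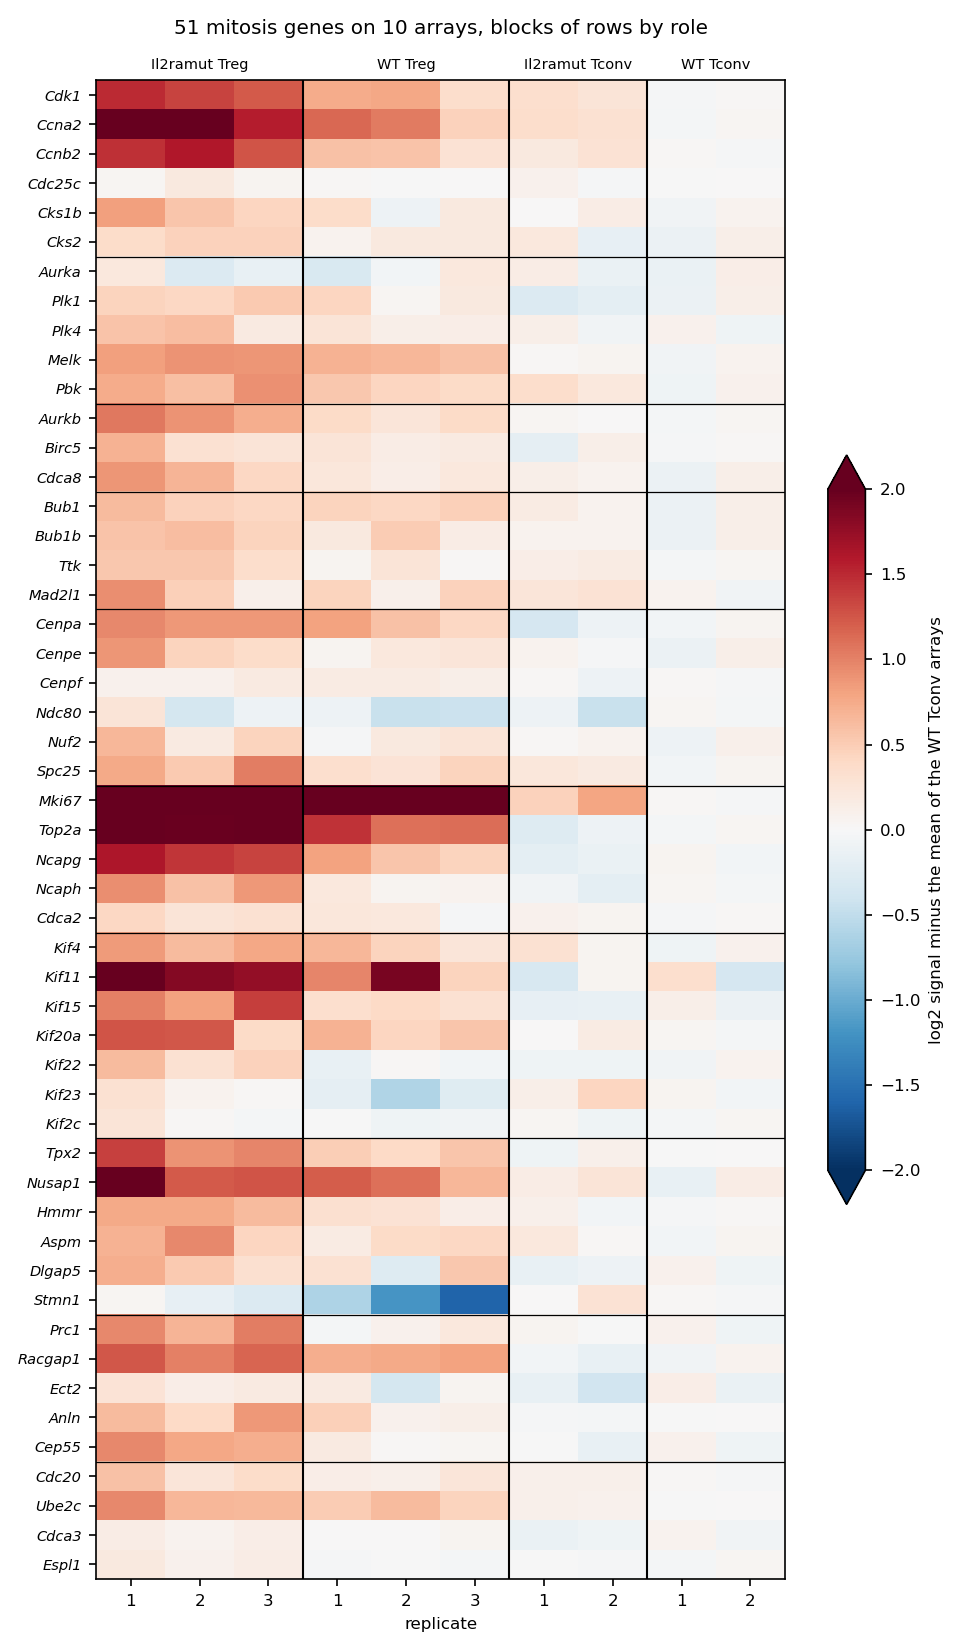
Log2 signal of each of the 51 genes (rows, in blocks by role) on each of the 10 arrays (columns, by group and replicate number), minus the mean of the WT Tconv arrays for that gene, with the colour scale ending at 2 in either direction. Red is broadest in the Il2ramut/mut Treg columns, and Stmn1 is the row that is bluest in WT Treg cells.

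The first comparison asked whether the transcripts of mitosis genes differ between Treg cells of Il2ramut/mut and WT mice. Among the 51 genes, 8 were called higher in Il2ramut/mut than in WT Treg cells (limma, adjusted p under 0.05 over all probe sets) and 0 were called lower: Mki67, Top2a, Ncapg, Ncaph, Ccnb2, Cdk1, Prc1 and Cep55. Over all 65770 probe sets, 247 were called (0.376%), 113 of them higher (0.172%) and 134 lower (0.204%). At an unadjusted p under 0.05, 35 of the 51 genes were higher and 0 lower, where 9.88% of all probe sets passed this limit, 4.40% higher and 5.49% lower. The study's criterion, a fold of at least 1.5 with p of at most 0.01 in the methods' t-test, was met by 8 of the 51 genes, all higher, and by 0.587% of all probe sets. The difference was above 0 for 49 of the 51 genes, against 49.4% of all probe sets, and its median over the genes was 0.37, against -0.002 over all probe sets. For 33 of the 51 genes every Il2ramut/mut Treg array was above every WT Treg array, and for 0 every one was below, where 8.25% and 8.51% of all probe sets had groups that did not overlap in these directions. In these bulk samples, more dividing cells and more of these transcripts per dividing cell cannot be told apart.

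**Figure D2:**
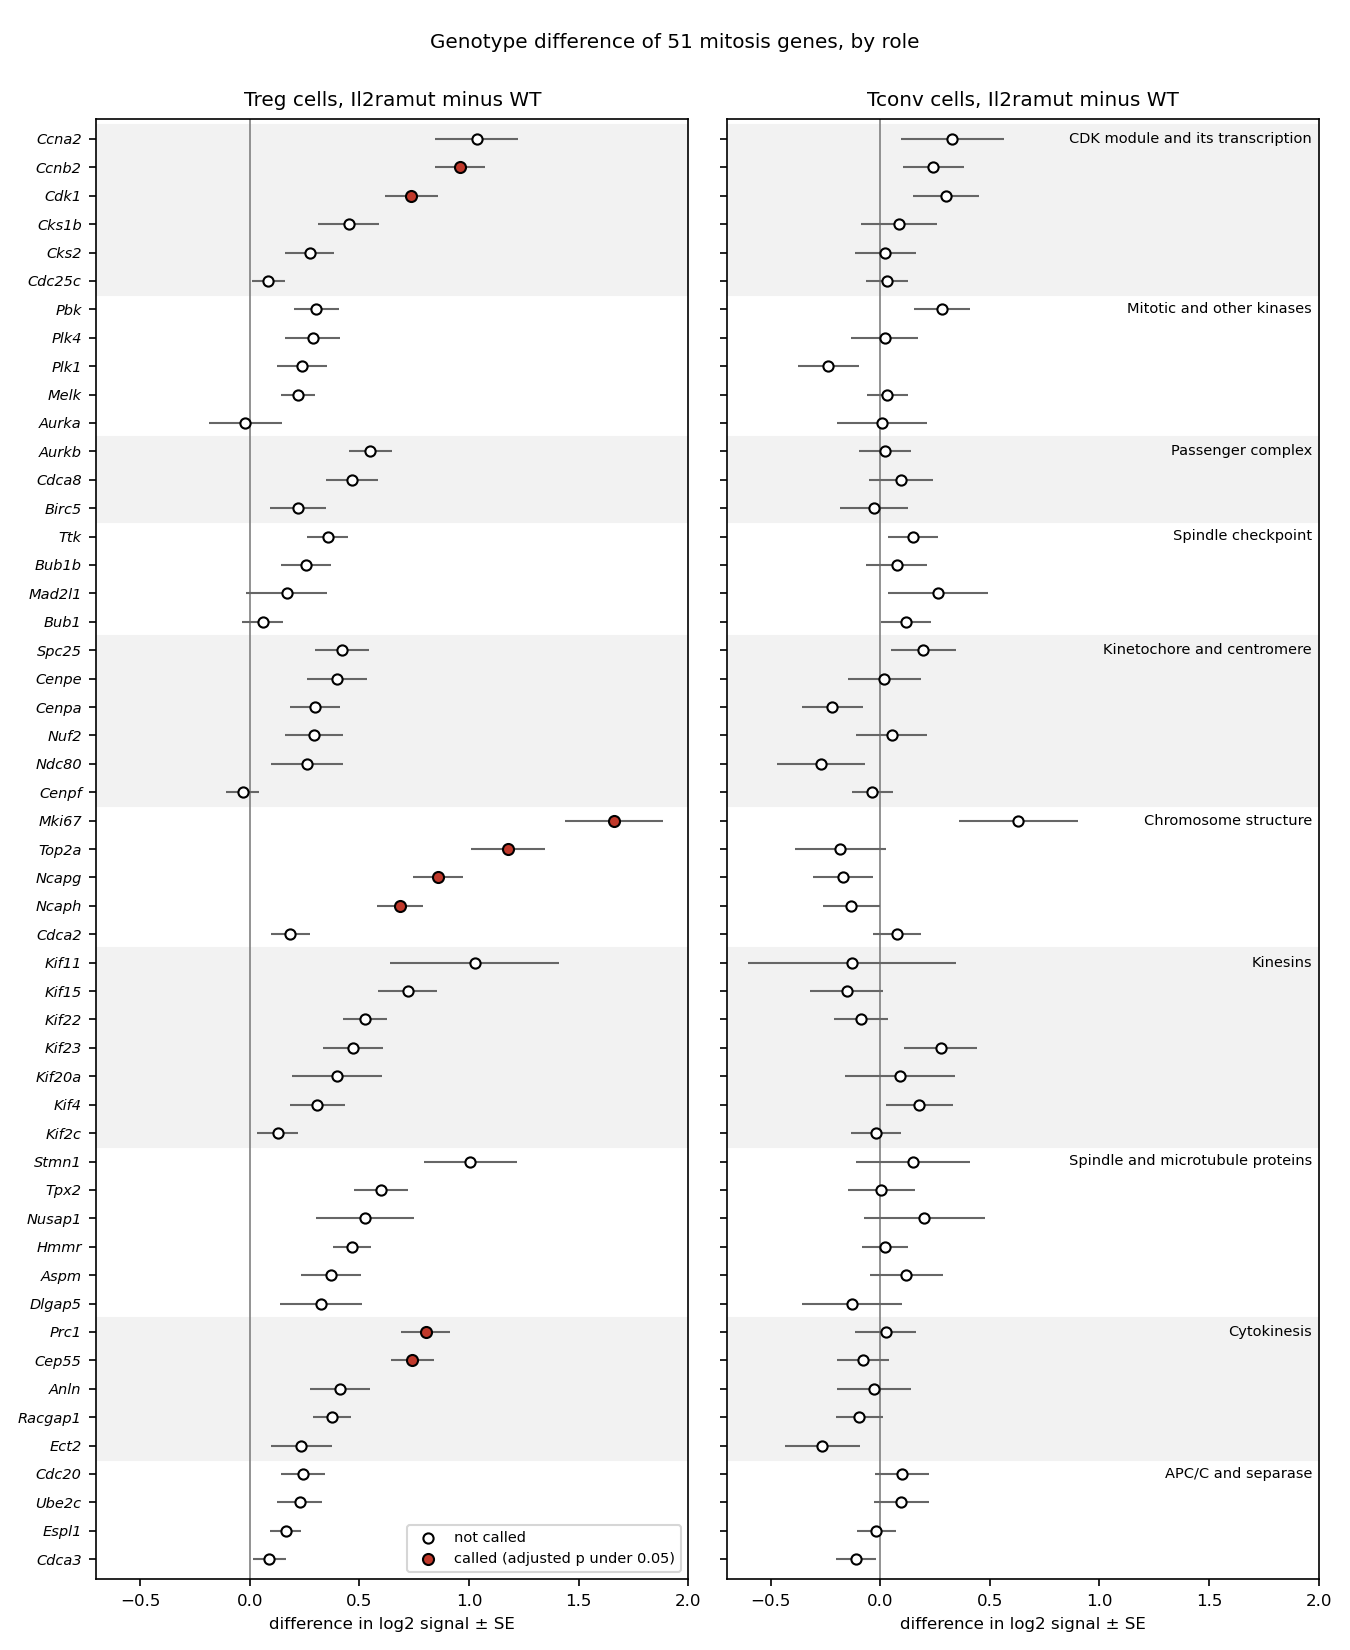
Difference in log2 signal, Il2ramut/mut minus WT, with its standard error, for each of the 51 genes in Treg cells (left, n = 3 arrays each) and in Tconv cells (right, n = 2 each), in blocks by role. Filled points are the 8 genes called in Treg cells, where 49 of 51 points lie right of 0; in Tconv cells 32 of 51 do and none is called.

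Genes of chromosome structure had 4 of 5 members called. Mki67, whose protein Ki-67 coats mitotic chromosomes and marks cycling cells, gave signals of 11.13, 10.38 and 10.71 in Treg cells of Il2ramut/mut mice, and of 9.46, 9.11 and 8.67 in those of WT mice. All mutant values lay above all WT values, a difference of 1.66 ± 0.22 (SE, log2 scale) or 3.16-fold (adjusted p = 0.0171). Top2a, the topoisomerase that untangles replicated DNA, read 8.82, 8.17 and 8.76 in Il2ramut/mut Treg cells, against 7.63, 7.29 and 7.31 in WT Treg cells. It too was separated between genotypes, by 1.18 ± 0.17 or 2.26-fold (adjusted p = 0.0242). Ncapg and Ncaph encode subunits of condensin I, the ring that compacts mitotic chromosomes. Ncapg read 6.99, 6.80 and 6.72 in Il2ramut/mut Treg cells, against 6.18, 5.93 and 5.82 in WT Treg cells (difference 0.86 ± 0.11, 1.81-fold, adjusted p = 0.0158). Ncaph read 6.97, 6.63 and 6.90 in Il2ramut/mut Treg cells, against 6.25, 6.09 and 6.10 in WT Treg cells (difference 0.69 ± 0.11, 1.61-fold, adjusted p = 0.0332). Both subunits were thus separated between the genotypes on every array. The fifth gene, Cdca2, which brings a phosphatase to chromosomes, differed by 0.18 ± 0.09 (adjusted p = 0.548).

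The cyclin-dependent kinase genes had 2 of 6 members called. Ccnb2 (cyclin B2), which had the lowest p of the 51 genes, read 6.66, 6.80 and 6.47 in Il2ramut/mut Treg cells, against 5.79, 5.77 and 5.50 in WT Treg cells. The groups did not overlap, with a difference of 0.96 ± 0.11 or 1.94-fold (adjusted p = 0.0118). Its partner Cdk1, the kinase that starts mitosis, read 6.44, 6.30 and 6.18 in Il2ramut/mut Treg cells, against 5.69, 5.72 and 5.30 in WT Treg cells. The difference of 0.74 ± 0.12 or 1.67-fold was the call nearest the threshold (adjusted p = 0.0454). Ccna2 (cyclin A2), singled out after its values were seen, differed by as much, 1.04 ± 0.19 or 2.05-fold, without being called (adjusted p = 0.0672). It read 7.17, 7.12 and 6.63 in Il2ramut/mut Treg cells, against 6.21, 6.09 and 5.52 in WT Treg cells, with no overlap but a wider spread within groups. The small kinase-binding subunits Cks1b and Cks2 differed by 0.45 ± 0.14 and 0.27 ± 0.11 (adjusted p = 0.318 and 0.469). Cdc25c, the phosphatase that activates CDK1, was at background on every array.

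**Figure D3:**
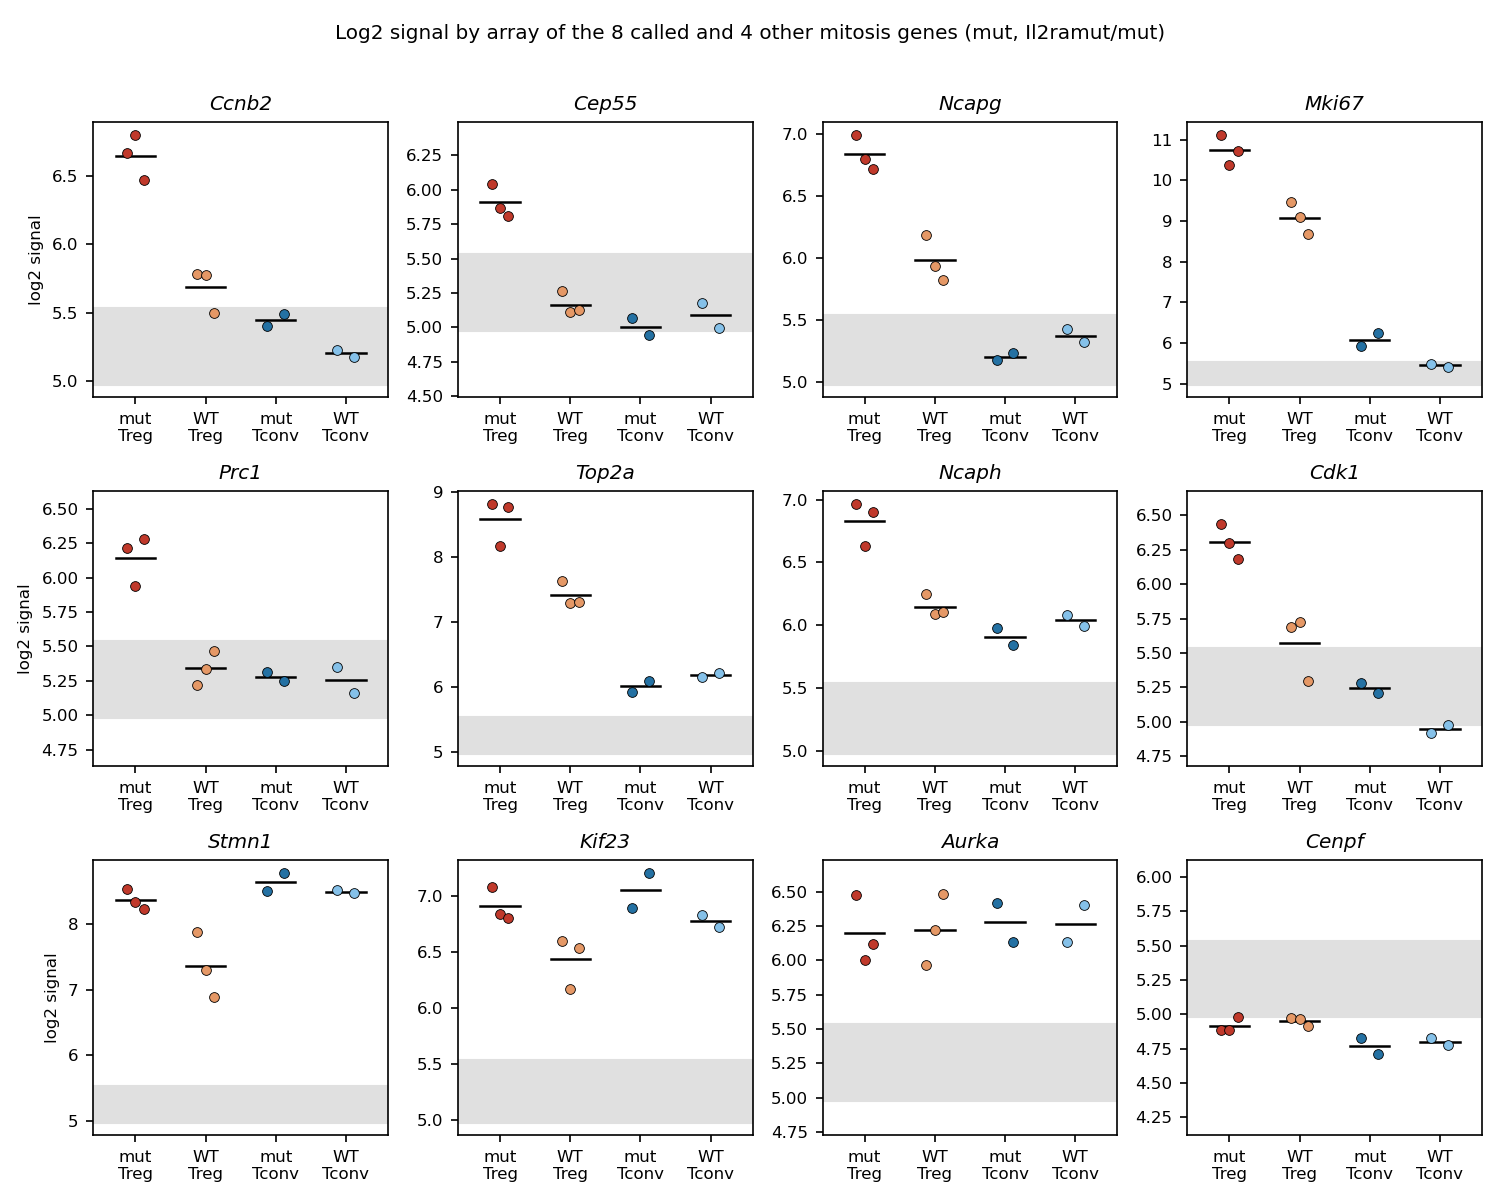
Log2 signal on each array (points) with the group mean (line) for the 8 genes called between genotypes in Treg cells and for Stmn1, Kif23, Aurka and Cenpf, in Il2ramut/mut Treg, WT Treg, Il2ramut/mut Tconv and WT Tconv cells; the grey band is the range of background levels over the arrays, 4.98 to 5.54. In the 8 called genes the 3 mutant Treg points sit above all others.

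Cytokinesis genes had 2 of 5 members called. Cep55, a midbody protein that recruits the machinery of final cell separation, read 6.05, 5.87 and 5.81 in Il2ramut/mut Treg cells, against 5.26, 5.11 and 5.12 in WT Treg cells, and the difference was 0.74 ± 0.10 or 1.67-fold (adjusted p = 0.0156). Prc1, which bundles the microtubules of the central spindle, read 6.22, 5.94 and 6.28 in Il2ramut/mut Treg cells, against 5.22, 5.34 and 5.47 in WT Treg cells (difference 0.80 ± 0.11, 1.74-fold, adjusted p = 0.0225). Each of these genes was above background on all Il2ramut/mut Treg arrays and on 2 of 3 WT Treg arrays, so the WT level was close to what the array can measure. Ect2, the exchange factor that switches on RhoA at the cleavage furrow, differed by 0.24 ± 0.14 (adjusted p = 0.646). Racgap1 of the centralspindlin complex and the furrow scaffold Anln gave 0.37 ± 0.09 and 0.41 ± 0.14 (adjusted p = 0.158 and 0.364).

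None of the 13 kinesin and spindle protein genes was called by limma, though 10 of them had an unadjusted p under 0.05, all higher. Kif15, a kinesin that helps hold the bipolar spindle, read 6.28, 6.08 and 6.65 in Il2ramut/mut Treg cells, against 5.61, 5.67 and 5.58 in WT Treg cells (difference 0.72 ± 0.14, adjusted p = 0.076). Hmmr, a spindle pole protein, differed by 0.47 ± 0.09 (adjusted p = 0.0677). Kif11, the motor that pushes spindle poles apart and a gene singled out after its values were seen, had a difference of 1.03 that was uncertain (SE 0.39, adjusted p = 0.428). Its second WT Treg replicate, at 7.31, overlapped the Il2ramut/mut Treg arrays at 8.22, 7.24 and 7.16, while the other WT Treg arrays read 6.38 and 5.85. Stmn1 (stathmin), which destabilises microtubules, read 8.54, 8.34 and 8.22 in Il2ramut/mut Treg cells, against 7.87, 7.31 and 6.89 in WT Treg cells. These did not overlap, but the WT values were spread widely and the difference of 1.01 ± 0.21 missed the threshold (adjusted p = 0.109).

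Kinase, passenger complex, checkpoint, kinetochore and APC/C genes, 22 in all, had 0 called by limma and 12 with an unadjusted p under 0.05, all higher. Among the kinases, Plk4, which starts centriole duplication, differed by 0.29 ± 0.12 and Pbk by 0.30 ± 0.10 (adjusted p = 0.493 and 0.37). Aurka, the Aurora kinase of spindle poles, showed overlapping groups, with 6.48, 6.00 and 6.12 in Il2ramut/mut Treg cells, against 5.96, 6.22 and 6.48 in WT Treg cells (difference -0.02 ± 0.17, adjusted p = 0.985). Aurkb, the Aurora kinase of the chromosomal passenger complex, was the gene nearest to a call, at a difference of 0.55 ± 0.10 (adjusted p = 0.0581). It read 5.57, 5.41 and 5.24 in Il2ramut/mut Treg cells, above background on 2 arrays, and 4.90, 4.76 and 4.90 in WT Treg cells, all at background. Cdca8 (borealin), of the same complex, differed by 0.47 ± 0.12 (adjusted p = 0.201). The checkpoint kinase gene Ttk was at background on every array, at a difference of 0.36 ± 0.09 (adjusted p = 0.213). Mad2l1, a checkpoint protein that holds back the APC/C, had overlapping values, 10.18, 9.73 and 9.36 in Il2ramut/mut Treg cells against 9.70, 9.35 and 9.71 in WT Treg cells (difference 0.17 ± 0.19, adjusted p = 0.839). Cenpa, the histone variant that marks centromeres, and Spc25 of the kinetochore's NDC80 complex differed by 0.30 ± 0.11 and 0.42 ± 0.12 (adjusted p = 0.436 and 0.274). The APC/C activator Cdc20 and its ubiquitin-conjugating enzyme Ube2c differed by 0.24 ± 0.10 and 0.23 ± 0.10 (adjusted p = 0.467 and 0.505). Differences across these 22 genes ran from -0.03 (Cenpf) to 0.55 (Aurkb).

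The calls of single genes depended on which arrays entered the fit. Leaving out Il2ramut/mut Treg replicate 1, 2 or 3 left 1, 8 or 1 of the 51 genes called, and leaving out WT Treg replicate 1, 2 or 3 left 6, 0 or 1. Of all 65770 probe sets, 105, 166 or 68 and 154, 38 or 59 were called in the same fits. Ccnb2 kept its call in 5 of these 6 fits and lost it without WT Treg replicate 2 (adjusted p = 0.0547), whereas Cdk1 was not called in any. The median difference of the 51 genes stayed between 0.30 and 0.42.

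Markers of other cells were set beside these differences. B cell markers were above background for 3 of 8 measured genes (Cd79b, Cd22 and, on 1 array, Blk), with Ms4a1, Cd79a, Pax5 and Ebf1 at background. The mean over the list was 5.09 to 5.19 on Il2ramut/mut Treg arrays and 5.20 to 5.22 on WT Treg arrays. Cd22 was lower on every Il2ramut/mut Treg array than on every WT Treg array (difference -0.75, adjusted p = 0.0515), while 4 of the 8 genes had differences above 0. For germinal centre B cells and plasma cells, in part dividing cells, 3 of 6 genes were above background (S1pr2, Mybl1 and Jchain). Sdc1, Mzb1 and Tnfrsf17 were at background. The mean was 5.363 to 5.453 in Il2ramut/mut Treg cells against 5.296 to 5.355 in WT Treg cells, so every Il2ramut/mut array was above every WT array. S1pr2 and Mybl1 were separated in this direction too, as were 8.25% of all probe sets. In limma, 1 of the 6 genes was higher at an unadjusted p under 0.05 and 0 were called (lowest adjusted p = 0.316). Means of thymocyte markers (2 of 3 above background on an array, Rag2 on none) were 4.60 to 4.76 in Il2ramut/mut Treg cells and 4.68 to 4.75 in WT Treg cells. Naive T cell markers, all 5 above background, averaged 11.51 to 11.75 in Il2ramut/mut Treg cells and up to 12.16 in WT Treg cells, where every array was above every Il2ramut/mut array. Igfbp4, a gene of naive T cells, was the 1 marker called, at a difference of -1.11 ± 0.15 (adjusted p = 0.0156), whereas Il7r, the IL-7 receptor chain in the same list, differed the other way, by 0.47 ± 0.22 (adjusted p = 0.528). Myeloid markers, 6 of 10 above background on an array and Csf1r and Adgre1 on none, averaged 5.45 to 5.58 in Il2ramut/mut Treg cells. They averaged 5.55 to 5.60 in WT Treg cells, and 5 of the 10 genes had differences above 0. By far the brightest was Ly6c2, at 9.97 to 11.1 in Il2ramut/mut and 11.05 to 11.68 in WT Treg cells. It was highest in the sorted Tconv cells, at 13.0 to 13.5, so this mean does not reflect myeloid cells alone. Of the CD8 T cell markers, Cd8b1 was above background on all arrays and Cd8a on none, and their mean was 6.61 to 7.08 in Il2ramut/mut Treg cells and 7.16 to 7.41 in WT Treg cells. NK cell markers, 3 of 4 above background on an array and Ncr1 on none, averaged 5.27 to 5.31 in Il2ramut/mut Treg cells and 5.23 to 5.33 in WT Treg cells, with Klrb1c at a difference of 0.55 ± 0.16 (adjusted p = 0.283). Erythroid markers, 2 of 3 above background and Klf1 on none, averaged 5.14 to 5.23 in Il2ramut/mut Treg cells and 5.26 to 5.34 in WT Treg cells. Markers of stroma and endothelium, 4 of 6 above background and Cdh5 and Col3a1 on none, averaged 5.78 to 5.88 in Il2ramut/mut Treg cells and 5.96 to 6.04 in WT Treg cells, with Pecam1, which T cells also express, at -0.82 ± 0.17 (adjusted p = 0.0999). The part of these markers in the differences of mitosis genes was not tested.

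The promoters of the 8 called genes are shown because sequence is a feature that the measurement did not use. In mammalian cells, late cell cycle genes are known to carry a cell cycle genes homology region (CHR) near the start site, bound by the MuvB complex, often with CCAAT boxes, bound by NF-Y, a set distance upstream. RefSeq promoter windows (build GRCm38.p6, 250 bases before to 50 after a start) were found for 42 of the 51 genes, in 45 windows. In the stretches below, capitals mark the CHR letters TTTGAA or TTCGAA and the letters CCAAT, each on either strand, so that TTCAAA and ATTGG are the reverse forms; each stretch ends just after the CHR match nearest the start. Cep55 and Ncapg have no CCAAT letters in the stretch shown.
Ccnb2 (chr9:70421541-70421645, minus strand): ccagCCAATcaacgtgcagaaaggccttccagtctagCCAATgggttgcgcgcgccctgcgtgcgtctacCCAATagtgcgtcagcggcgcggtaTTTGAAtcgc
Cdk1 (chr10:69352918-69353022, minus strand): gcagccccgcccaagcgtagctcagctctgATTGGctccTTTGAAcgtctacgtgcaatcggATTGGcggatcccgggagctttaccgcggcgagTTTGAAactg
Top2a (chr11:99024203-99024309, minus strand): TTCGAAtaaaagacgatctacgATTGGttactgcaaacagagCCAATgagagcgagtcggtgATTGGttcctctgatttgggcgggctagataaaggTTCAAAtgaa
Mki67 (chr7:135716468-135716572, minus strand): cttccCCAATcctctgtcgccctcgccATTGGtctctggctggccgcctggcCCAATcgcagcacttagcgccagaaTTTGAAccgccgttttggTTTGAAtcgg
Prc1 (chr7:80294351-80294455, plus strand): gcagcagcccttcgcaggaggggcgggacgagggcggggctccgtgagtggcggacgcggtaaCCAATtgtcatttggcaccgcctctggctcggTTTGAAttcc
Ncapg (chr5:45669800-45669904, plus strand): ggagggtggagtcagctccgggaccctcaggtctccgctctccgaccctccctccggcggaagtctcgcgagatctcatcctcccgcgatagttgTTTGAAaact
Cep55 (chr19:38054913-38055017, plus strand): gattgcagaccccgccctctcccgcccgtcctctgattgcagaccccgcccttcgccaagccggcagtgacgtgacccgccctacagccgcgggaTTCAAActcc

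The called gene without CHR letters in its window was Ncaph, shown by the 100 bases before its start. Kif23, a kinesin of centralspindlin that was called in no comparison, is shown beside it because it has CHR and CCAAT letters all the same.
Ncaph (chr2:127133955-127134054, minus strand): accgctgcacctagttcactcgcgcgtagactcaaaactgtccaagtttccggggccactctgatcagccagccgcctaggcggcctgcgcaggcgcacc
Kif23 (chr9:61946788-61946892, minus strand): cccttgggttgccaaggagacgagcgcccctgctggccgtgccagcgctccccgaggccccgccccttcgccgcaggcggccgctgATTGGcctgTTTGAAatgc

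CHR letters stood in 36 of the 45 windows of mitosis genes (80.0%), against 19.2% of all 32851 windows of the same length. Between 100 bases before and 50 after the start, they stood in 77.8% of the windows of mitosis genes and in 8.59% of all windows. CCAAT letters stood in 71.1% against 37.4%, and both sets of letters in 66.7% against 7.52%. In 34 of the 36 windows with CHR letters, the match nearest the start lay within 50 bases of it. Cep55, Ect2 and Prc1 each had 2 overlapping windows, so their matches can count more than once. Among genes with 1 window, CHR letters stood in 30 of 39 mitosis genes (76.9%), against 19.8% of all such genes. A match of each kind shared bases with the other in 1 place. The letters did not divide the genes by their call, since 7 of the 8 called genes had CHR letters and so did 26 of the 34 other genes with a window. A match is a description of the letters, not evidence of binding.

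**Figure D4:**
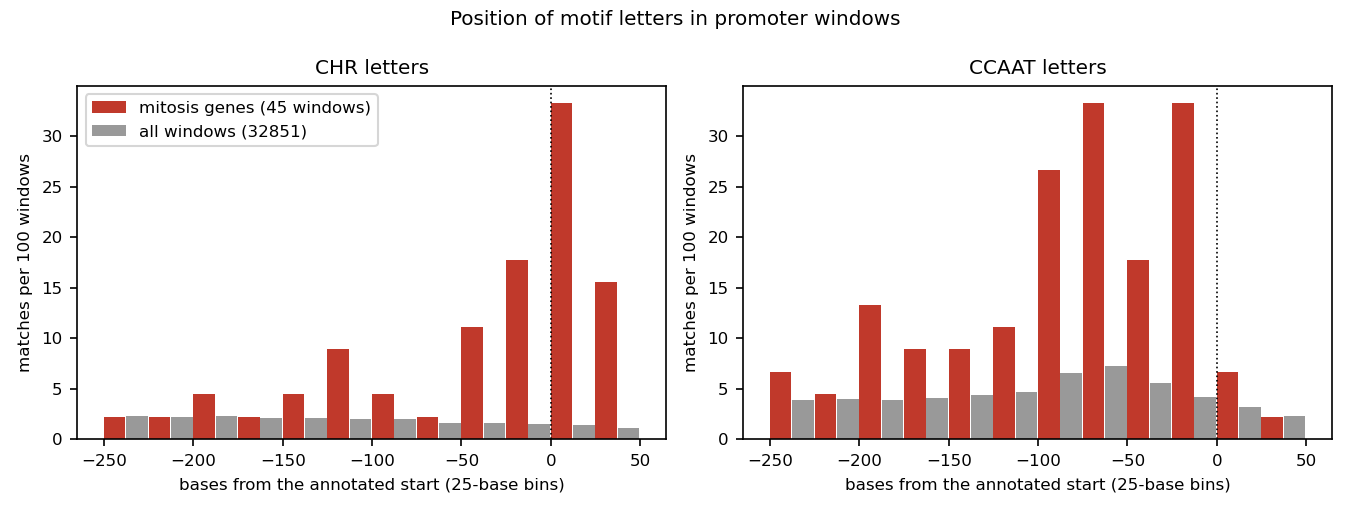
Matches to CHR letters (left) and CCAAT letters (right) per 100 promoter windows, in bins of 25 bases from the annotated start (dotted line), for the 45 windows of mitosis genes (red) and all 32851 windows (grey). CHR letters of mitosis genes peak at 33.3 matches per 100 windows in the first 25 bases after the start, where all windows have 1.44, and CCAAT letters are densest in the 100 bases before it.

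The same genotype comparison in Tconv cells asked whether naive cells carry a like difference. None of the 51 genes was called by limma or by the methods' t-test, 1 was higher at an unadjusted p under 0.05 (7.09% of all probe sets, 3.71% higher and 3.38% lower), and 2 of all 65770 probe sets were called (0.00304%). For 13 genes every Il2ramut/mut Tconv array was above every WT Tconv array and for 12 every one was below, where 16.4% of all probe sets had such groups in each direction. The median difference was 0.02, against 0.003 over all probe sets. Mki67 was the gene with an unadjusted p under 0.05, at 5.91 and 6.24 in Il2ramut/mut Tconv cells and 5.48 and 5.42 in WT Tconv cells (difference 0.63 ± 0.27, adjusted p = 0.694). Pbk and Cdk1 came next, at 0.28 ± 0.13 and 0.30 ± 0.15 (adjusted p = 0.707 and 0.742), and both were at background in all Tconv samples. Top2a was at 5.93 and 6.09 in Il2ramut/mut Tconv cells and 6.16 and 6.22 in WT Tconv cells, the opposite order to Treg cells (difference -0.18 ± 0.21, adjusted p = 0.92).

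Whether the genotype difference itself was larger in Treg than in Tconv cells was tested as an interaction. None of the 51 genes passed in limma, and 1 of all probe sets did (0.00152%). At an unadjusted p under 0.05 there were 19 genes, all with the larger difference in Treg cells, where 2.74% of all probe sets had it in that direction and 3.80% in the other. The median interaction was 0.37, against -0.003 over all probe sets, and 48 of 51 genes were above 0, against 49.3% of all probe sets. The lowest p were those of Ncapg (1.03 ± 0.18, adjusted p = 0.215), Cep55 (0.82 ± 0.15, adjusted p = 0.246) and Top2a (1.36 ± 0.27, adjusted p = 0.259).

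Treg cells were then set against Tconv cells within each genotype. In Il2ramut/mut mice 31 of the 51 genes were called higher in Treg cells and 0 lower, where 11.4% of all probe sets were called and 5.42% were called higher. In WT mice 13 were called higher and 1 lower, where 7.90% of all probe sets were called, 4.37% higher and 3.53% lower. At an unadjusted p under 0.05, 42 genes were higher and 0 lower in Il2ramut/mut mice (8.90% and 15.1% of all probe sets), and 22 were higher and 1 lower in WT mice (20.2% of all probe sets, 8.01% higher and 12.2% lower). The study's criterion was met by 15 genes in Il2ramut/mut mice (4.78% of all probe sets) and by 4 in WT mice (3.76%). The median difference was 0.57 in Il2ramut/mut mice and 0.22 in WT mice, against -0.08 over all probe sets in each. These counts do not test the genotypes against each other, which the interaction does.

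**Figure D5:**
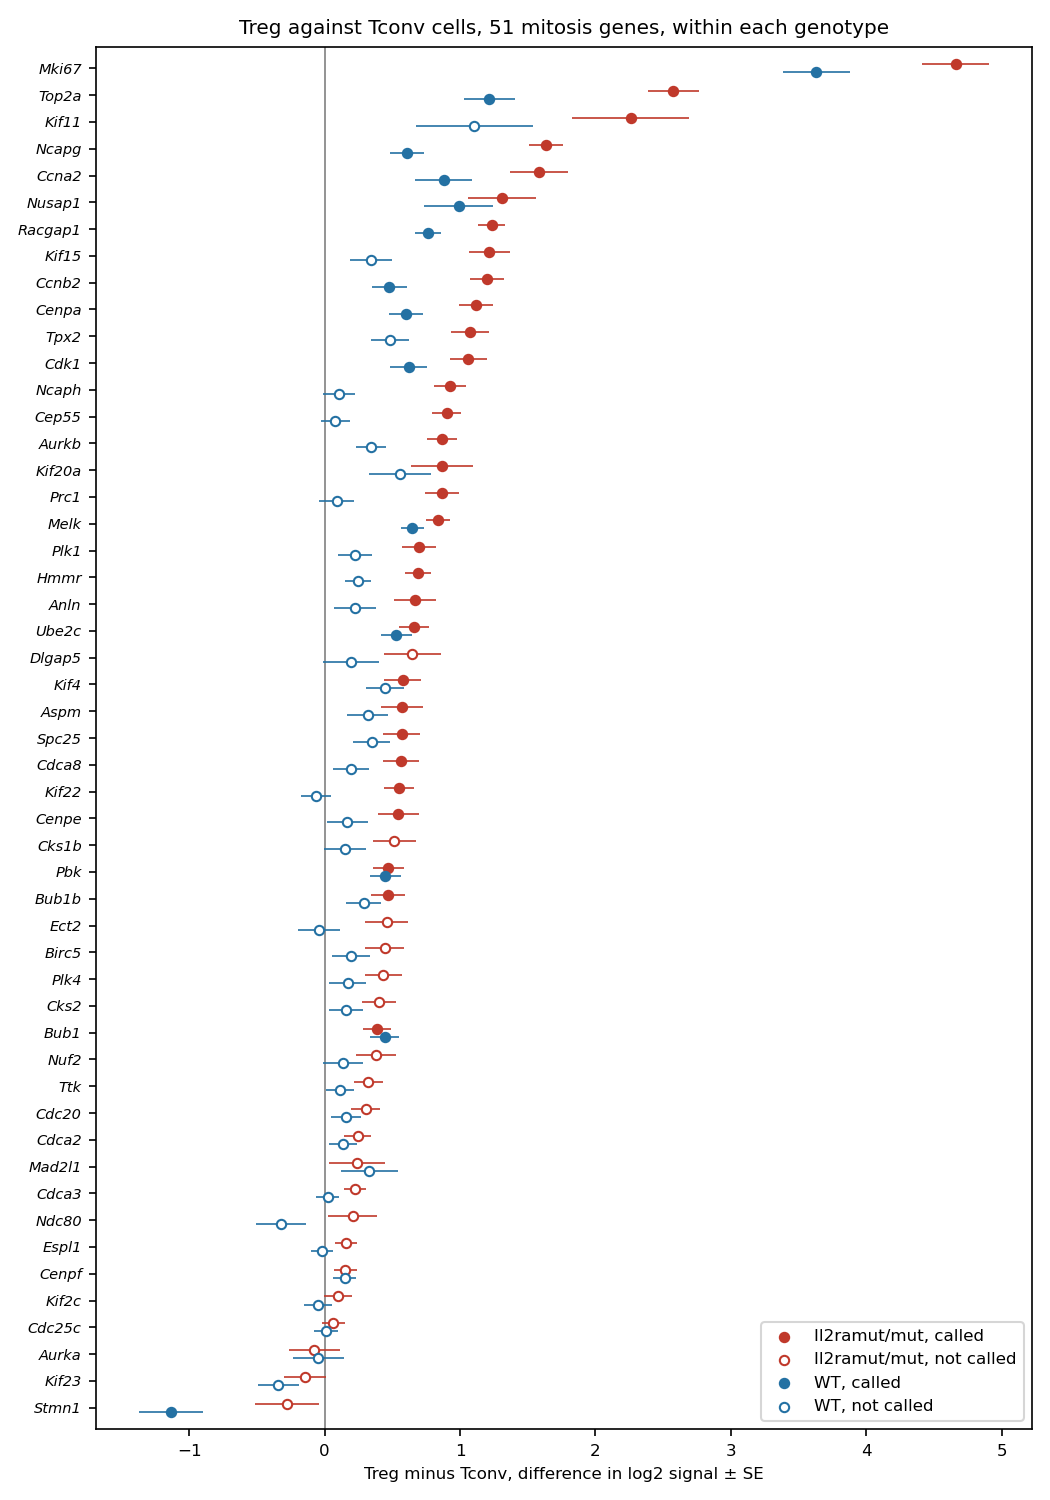
Difference in log2 signal, Treg minus Tconv, with its standard error, for each of the 51 genes in Il2ramut/mut mice (red) and in WT mice (blue), in the order of the Il2ramut/mut difference; filled points are called. Mki67 lies farthest right in both genotypes, at 4.66 in Il2ramut/mut and 3.63 in WT mice, and Stmn1 is the 1 gene called lower, in WT mice.

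Mki67 had the largest difference between cell types, 4.66 ± 0.25 or 25.3-fold in Il2ramut/mut mice (adjusted p = 1.58e-06) and 3.63 ± 0.25 or 12.4-fold in WT mice (adjusted p = 1.06e-05). Top2a differed by 2.58 ± 0.19 or 5.96-fold in Il2ramut/mut mice (adjusted p = 1.55e-05) and by 1.22 ± 0.19 or 2.32-fold in WT mice (adjusted p = 0.00309). Ncapg was at background in Il2ramut/mut Tconv cells, at 5.17 and 5.23, and was at least 2.9-fold higher in Il2ramut/mut Treg cells (adjusted p = 2.07e-05). In WT mice it differed by 0.61 ± 0.13 or 1.52-fold (adjusted p = 0.0156). Racgap1 and Melk, a kinase of dividing cells, were the genes with the lowest p after Mki67 in WT mice, with differences of 0.76 ± 0.10 and 0.65 ± 0.09 (adjusted p = 0.000917 and 0.00119). Racgap1 read 6.07, 6.10 and 6.15 in WT Treg cells and 5.28 and 5.41 in WT Tconv cells, and Melk was at background in all Tconv samples.

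For 3 of the genes called between genotypes, the difference between WT Treg and WT Tconv cells was not called. Prc1, Cep55 and Ncaph differed between WT Treg and WT Tconv cells by 0.09 ± 0.13, 0.08 ± 0.11 and 0.11 ± 0.12 (adjusted p = 0.744, 0.732 and 0.658), and were called higher in Treg cells of Il2ramut/mut mice, by 0.87 ± 0.13, 0.90 ± 0.11 and 0.93 ± 0.12 (adjusted p = 0.00156, 0.000458 and 0.000646). Prc1 read 5.31 and 5.25 in Il2ramut/mut Tconv cells and 5.35 and 5.16 in WT Tconv cells, which overlapped the WT Treg arrays, while Ncaph was slightly above every WT Tconv array on all WT Treg arrays. Cep55 was at background on every Tconv array and above it on 2 of 3 WT Treg arrays. Its small WT difference thus lies at the limit of measurement and does not show equal levels. Prc1 was above background on 2 of 3 WT Treg arrays and on all WT Tconv arrays, but on no Il2ramut/mut Tconv array. Cdk1, Ccnb2, Mki67, Top2a and Ncapg, the other 5 called genes, were called higher in Treg cells of both genotypes.

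Stmn1 followed another pattern. It read 8.50 and 8.79 in Il2ramut/mut Tconv cells and 8.52 and 8.47 in WT Tconv cells, above every Treg array except the first Il2ramut/mut replicate at 8.54. WT Treg cells were lower than WT Tconv cells by 1.13 ± 0.24 on the log2 scale, a 2.20-fold difference (adjusted p = 0.0161), while Il2ramut/mut Treg and Tconv cells differed by -0.28 ± 0.24 (adjusted p = 0.523). Kif23 read 7.08, 6.84 and 6.80 in Il2ramut/mut Treg cells, 6.59, 6.17 and 6.53 in WT Treg cells, 6.89 and 7.21 in Il2ramut/mut Tconv cells and 6.83 and 6.72 in WT Tconv cells. It was thus lowest in WT Treg cells as well, without being called (WT Treg minus WT Tconv -0.34 ± 0.15, adjusted p = 0.251). Across the 10 arrays, which share 4 groups, the signals of Aurka, Stmn1, Kif23 and Ndc80 followed the mean of the 51 genes least. Their Pearson r with this mean, which includes each gene's own signal, was -0.10, -0.08, 0.06 and 0.25. It was 0.98 for Tpx2, a spindle assembly factor, and 0.99 for Aurkb and Ncapg.

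The calls between cell types also rested on few arrays. With 1 array left out at a time, 20 to 27 of the 51 genes were called in Il2ramut/mut mice and 4 to 12 in WT mice. Of all 65770 probe sets, 4979 to 6368 were called in Il2ramut/mut mice and 3466 to 4096 in WT mice. The 4 genes in WT mice, without WT Tconv replicate 1, stood beside 3712 of all probe sets. In every one of these fits, 18 genes were called in Il2ramut/mut mice and 4 in WT mice (Melk, Mki67, Racgap1 and Top2a). The call of Stmn1 in WT mice was lost without WT Treg replicate 2, WT Tconv replicate 1 or WT Tconv replicate 2 (adjusted p up to 0.0899). It was kept without WT Treg replicate 1 or 3, and the difference was below 0 in all 5 fits, at -1.39 to -0.90.

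Other genes of the cell cycle were read in the Treg genotype comparison beside the 51, where 0.172% of all probe sets were called higher and 0.204% lower, and 4.40% were higher and 5.49% lower at an unadjusted p under 0.05. Of 76 other mitosis genes, 1 was called higher and 0 lower, 24 were higher at an unadjusted p under 0.05 and the median difference was 0.15. The called gene was Depdc1a, a cell division gene, at 0.67 ± 0.11 or 1.59-fold (adjusted p = 0.0461). Of 46 genes of S phase and DNA replication, 2 were called higher and 0 lower, 24 were higher at an unadjusted p under 0.05 and the median was 0.29. They were Lig1, the ligase that joins Okazaki fragments, at 0.47 ± 0.08 or 1.38-fold (adjusted p = 0.0466), and E2f7, a repressor of E2F target genes, at least 1.25-fold higher (adjusted p = 0.0443). All 3 calls were lost whichever of the 6 Treg arrays was left out.

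Core subunits of the APC/C and of cohesin, 24 genes whose products are used in every division but which are also needed outside mitosis, had 0 called by limma, 1 higher and 2 lower at an unadjusted p under 0.05, and a median of -0.06. Anapc13 differed by 0.62 ± 0.12 (adjusted p = 0.0793) and the cohesin regulator Pds5b by -0.31 ± 0.10 (adjusted p = 0.32). A list of 12 G1 genes held cyclins and kinases together with Cdc25a, E2f2, E2f3, Rb1 and Myc. Of these 12, 0 were called, 2 were higher and 1 lower at an unadjusted p under 0.05, and the median was -0.03. E2f2 differed by 0.34 ± 0.09 and Cdk6, a kinase of early G1, by 0.63 ± 0.17 (adjusted p = 0.206 and 0.221). Among 18 inhibitors and quiescence genes, 0 were called and 2 were higher at an unadjusted p under 0.05, with a median of 0.05. These were the kinase inhibitors Cdkn2c (0.63 ± 0.13, adjusted p = 0.0935) and Cdkn1a (0.42 ± 0.11, adjusted p = 0.203). A list of 7 genes held MuvB subunits, B-Myb (Mybl2) and the E2F partners Tfdp1 and Tfdp2. It had 0 called and 0 at an unadjusted p under 0.05, with Mybl2 at 0.15 ± 0.09 and Tfdp2 at 0.12 ± 0.11 (adjusted p = 0.658 and 0.799). Housekeeping genes, 4 in all, had none of either, with Tbp at -0.18 ± 0.08 and B2m at -0.13 ± 0.08 (adjusted p = 0.524 and 0.655).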

How the data were processed

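Groups came from the sample labels. The submitters' notes name Affymetrix Expression Console 1.4.1.46 and Transcriptome Analysis Console 3.1.0.5. The deposited values were log2 signals per probe set as the authors summarised them, with the base inferred from their range (1.83 to 19.9). Neither a summarisation method nor a build is given in the sources used here. Of 72688 rows, 65770 transcript probe sets were tested and 6918 others left out. 30473 probe sets named 1 gene, 2176 several and 33121 none, and 30471 of the first were found in the RefSeq table. Differences were fitted on these values in R 4.3.3 with limma 3.58.1, with 1 mean for each of 4 groups over all 10 arrays (6 residual and 3.54 prior degrees of freedom) and Benjamini-Hochberg adjustment over all probe sets. The script was tested on simulated data.

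Where a group was at background on all arrays, the fold was a bound: the brighter group's mean over that of the dim group, each dim array entering at its signal or its background level, whichever was higher. A fold is 2 to the power of the difference of mean log2 signals. The methods' t-test (unpaired ANOVA between 2 groups) was run at the study's criterion, a fold of at least 1.5 and p of at most 0.01, and after Benjamini-Hochberg adjustment. The genes and lists were chosen with earlier results of these data known. Named were the called genes, per role those with the highest mean signal and lowest p, per other contrast the 3 lowest p, per related list the called genes or the 2 lowest p, and others as stated; Cks2, Cdca2, Cdc25c, Racgap1, Anln, Aurka, Cenpf, Ndc80 and Tpx2 were also named after their values were seen. Replicates were taken as separate mice, from the series' design text. Same-numbered Treg arrays of the 2 genotypes did not deviate together (correlations -0.01 to 0.04).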

Additional observations from a re-analysis of the deposited data

How the results depend on the processing

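In Treg cells, the 247 probe sets called between genotypes became 38 to 166 with 1 array left out at a time, 135 with the arrays of the groups compared only, 386 by the methods' t-test at the study's criterion and 0 after its Benjamini-Hochberg adjustment. The 8 mitosis genes called became 0 to 8 with 1 array left out, 2 with the arrays compared only and 0 by the adjusted methods' t-test. They became 13 among probe sets naming 1 gene, where 264 of 30473 were called and fewer tests are adjusted for. The study's criterion also gave 8. The difference of Mad2l1 turned to -0.044 without Il2ramut/mut Treg replicate 1 and was -0.044 to 0.37 with 1 array left out. With the replicate number as a block, 130 probe sets and 8 mitosis genes were called in Treg cells and 0 probe sets in Tconv cells; Top2a lost its call, as did Depdc1a, E2f7 and Lig1. Same-numbered Tconv arrays correlated at -0.14 in their deviations, and crossing these numbers, a choice made after seeing the data, gave 0 calls in Tconv cells too. Quantile normalization left 8 mitosis genes called, with a median difference of 0.36.

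In Tconv cells, the 2 calls became 0 to 4 with 1 array left out, 1 with the arrays compared only, 0 among probe sets naming 1 gene, and 68 and 0 by the methods' t-test at the criterion and after adjustment. Between cell types, the methods' t-test called 2470 and 637 probe sets in WT mice and 3142 and 985 in Il2ramut/mut mice, with 4 and 0 mitosis genes in WT and 15 and 3 in Il2ramut/mut mice. Leaving out 1 array gave 4 to 12 mitosis genes in WT and 20 to 27 in Il2ramut/mut mice, and 3466 to 4096 and 4979 to 6368 probe sets. The arrays compared only gave 9 mitosis genes and 4243 probe sets in WT mice, and probe sets naming 1 gene gave 4697 calls in Il2ramut/mut mice. The 1 interaction call became 1 to 3 with 1 array left out and 5 among probe sets naming 1 gene, and the median interaction of the mitosis genes 0.26 to 0.45. The causes were not tested. The 8 genes at background have no measured fold, and a difference near background understates the change.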

Other observations

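Outside the 51 mitosis genes, the 5 genes whose signal most resembled their mean over the 10 arrays were Depdc1a (Pearson r = 0.99), Crybg3 (0.99), Gm25338 (0.98), E2f8 (0.98) and Havcr2 (0.98). E2f8, like E2f7, represses E2F targets, and Havcr2 encodes TIM-3, an inhibitory receptor of activated T cells. Havcr2 read 6.34, 5.55 and 5.92 in Il2ramut/mut Treg cells, 5.10, 5.24 and 4.85 in WT Treg cells, 4.18 and 4.21 in Il2ramut/mut Tconv cells, and 4.06 and 4.15 in WT Tconv cells. It was above background on all Il2ramut/mut Treg arrays and on WT Treg replicate 2. On WT Treg replicates 1 and 3 and on every Tconv array it was at background. The arrays share 4 groups, so such a correlation describes the order of the groups.

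Of 12 G1 genes, 5 were called higher in Treg than in Tconv cells of Il2ramut/mut mice and 5 of WT mice, with 0 lower in either, and they were Cdk6, E2f2, E2f3, Rb1 and Myc each time. Over all probe sets, 5.42% were called higher and 5.93% lower in Il2ramut/mut mice, and 4.37% higher and 3.53% lower in WT mice. At an unadjusted p under 0.05, 3 of the G1 genes were lower in Treg cells of Il2ramut/mut mice and 1 in those of WT mice. Cdk6, a kinase of early G1, differed by 2.79 ± 0.19 or 6.90-fold in Il2ramut/mut mice (adjusted p = 7.95e-06) and by 2.37 ± 0.19 or 5.17-fold in WT mice (adjusted p = 3.08e-05). Among the 18 inhibitors and quiescence genes, 4 were called higher and 3 lower in Treg cells of Il2ramut/mut mice, and 1 higher and 4 lower in those of WT mice, beside the same shares of all probe sets. Rbl2, the pocket protein of resting cells, was higher in Treg cells of both, by 1.28 ± 0.14 in Il2ramut/mut mice and 0.92 ± 0.14 in WT mice (adjusted p = 0.000269 and 0.00295). Klf2 and Foxp1, factors of naive T cells, were lower in both. The antiproliferative gene Btg1 differed between Treg and Tconv cells by -2.76 ± 0.35 in Il2ramut/mut mice (adjusted p = 0.000696) and by -0.53 ± 0.35 in WT mice (adjusted p = 0.456). The interaction of Btg1 was not called (-2.23 ± 0.50, adjusted p = 0.33), and the signal of Il2ramut/mut over WT cells differed by -0.26 ± 0.32 among Treg cells (adjusted p = 0.859). The larger genotype gap was among Tconv cells, with a 3.92-fold higher mean in Il2ramut/mut than in WT cells that was not called (adjusted p = 0.396).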
